A study of Homo sapiens with 6 samples.

Results

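The genes described here carry a LINC symbol, the name given to long intergenic noncoding RNA genes that have no name from a known function. Genes were taken by 2 criteria: a symbol made of LINC and digits alone, and at least 60 counts summed over the 6 samples of the study. They were thus chosen by their summed raw counts. Of 63677 genes in the deposited table, 643 had such a symbol, 299 of these had any count, and 106 reached the summed count. All 106 passed the filter on low counts and were tested among 15492 genes. The criterion used the sum over both groups and not their difference. Just inside it stood LINC01136 with 64 counts, 35 in the DOX samples and 29 in the DMSO samples. Just outside it stood LINC00852 with 59 counts, 36 in the DOX samples and 23 in the DMSO samples. Of the 106, 4 genes had at least 30 counts in the DOX samples and fewer in the DMSO samples, and 0 genes had the opposite pattern. None of the 4 was called in the main test. LINC00933, 1 of the 4, had 48 counts in the DOX samples and 22 in the DMSO samples. It was called higher in some alternative fits below: the GC and length offset, upper-quartile scaling, library size alone and without DOX replicate 3.

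The study used RPMI-8402, an established human cell line from acute lymphoblastic leukaemia of T cells (T-ALL). All 6 samples stably expressed Cas9 and carry the label MYC_KO, and medium with tetracycline-free serum was used throughout. The 3 DOX samples received doxycycline for 72 hours, which switches on guide RNAs against MYC, a transcription factor that drives growth, and the 3 DMSO samples received the solvent alone. No sample given doxycycline without guides is among the labels, so an effect of the drug and an effect of the guides cannot be told apart. Whether the line was a single clone and whether the replicates were separate cultures is not stated, and p-values therefore measure only a spread between samples that may be technical. In bulk RNA, fewer cells of a kind and less RNA per cell cannot be told apart.

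Long intergenic noncoding RNAs are transcribed by RNA polymerase II, and most are spliced and polyadenylated like messenger RNAs. They usually have few exons and low levels, and many are seen in a narrow range of cell types. Many remain in the nucleus, where the RNA exosome, a complex of ribonucleases, degrades a large part of unstable noncoding transcripts. Some act as RNAs, some mark transcription near another gene, and some that were first named LINC proved to encode small proteins. MYC binds DNA with its partner MAX, preferentially at the E-box hexamer CACGTG.

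The promoters below are shown because they belong to a called gene that rose by over 2-fold (LINC00479), its head-to-head neighbour (LINC00112), the called gene with the largest fall (LINC00998, now SMIM30) and the called gene whose window held CACGTG (LINC00493, now SMIM26). LINC00112 and LINC00493 were chosen after their values were seen. Each window runs from 250 bases before to 50 bases after the RefSeq transcript start, on GRCh38.p14, in the 5′ to 3′ direction of the gene. The windows lie at chr21:41715726-41716025 on the minus strand, chr21:41716186-41716485 on the plus strand, chr7:113118505-113118804 on the minus strand and chr20:18567182-18567481 on the plus strand. Capitals mark CACGTG.
LINC00479: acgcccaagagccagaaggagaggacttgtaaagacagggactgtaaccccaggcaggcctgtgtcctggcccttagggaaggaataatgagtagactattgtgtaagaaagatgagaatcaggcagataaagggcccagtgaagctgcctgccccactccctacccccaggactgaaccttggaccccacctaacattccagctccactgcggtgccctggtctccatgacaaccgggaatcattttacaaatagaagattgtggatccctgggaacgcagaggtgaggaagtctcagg
LINC00112: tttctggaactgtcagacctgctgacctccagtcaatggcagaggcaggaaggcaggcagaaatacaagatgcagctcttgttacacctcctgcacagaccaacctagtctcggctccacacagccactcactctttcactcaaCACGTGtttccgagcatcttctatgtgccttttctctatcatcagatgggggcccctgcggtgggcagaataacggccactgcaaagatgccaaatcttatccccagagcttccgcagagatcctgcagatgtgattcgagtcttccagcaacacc
LINC00998: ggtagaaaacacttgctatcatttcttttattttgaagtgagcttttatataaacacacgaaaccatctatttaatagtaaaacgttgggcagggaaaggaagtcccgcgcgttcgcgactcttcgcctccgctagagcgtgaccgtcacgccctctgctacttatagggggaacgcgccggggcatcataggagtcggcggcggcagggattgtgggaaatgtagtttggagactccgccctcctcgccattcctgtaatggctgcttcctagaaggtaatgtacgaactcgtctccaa
LINC00493: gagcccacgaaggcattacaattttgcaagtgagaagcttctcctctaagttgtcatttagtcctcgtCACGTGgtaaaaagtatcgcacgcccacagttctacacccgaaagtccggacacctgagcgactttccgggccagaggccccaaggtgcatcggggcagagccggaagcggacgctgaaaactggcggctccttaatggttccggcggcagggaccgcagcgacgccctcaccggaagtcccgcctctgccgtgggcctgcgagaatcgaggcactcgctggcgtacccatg

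CACGTG began 106 bases before the start of LINC00112 and 182 bases before that of LINC00493, and the windows of LINC00479 and LINC00998 did not hold it. The windows held 4 CpG dinucleotides in LINC00479, 7 in LINC00112, 22 in LINC00998 and 26 in LINC00493, and the median over all RefSeq promoters was 14. Of the 106 genes, 63 were matched to a RefSeq promoter. CACGTG, a palindrome and so the same on both strands, was in 8 of the 63 windows (12.7%), and in 2030 of all 27305 promoter windows (7.43%). CACGCG, searched on both strands, was in 6 of the 63 (9.52%) and in 3112 of all windows (11.4%). Among the 8 matched genes called higher in DOX, 0 windows held CACGTG and 1 held CACGCG, that of LINC00205. Of the 4 matched genes called lower, 1 held CACGTG, that of LINC00493. The window of NORAD, listed here as LINC00657, also held CACGTG. These matches describe the letters of the windows and do not show binding.

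MYC itself had 459, 431 and 431 CPM in DOX samples, against 409, 422 and 407 CPM in DMSO samples (CPM, the share of a library's counts scaled to 1000000, with TMM scaling between libraries). All 3 DOX values lay above the 3 DMSO values. The log2 fold change of DOX over DMSO was 0.09 (SE 0.0489), with an adjusted p of 0.16 in edgeR's quasi-likelihood test. Counts over MYC do not show whether the transcripts carry edits that end the protein, so the level of its RNA does not check the knockout. Library totals lay between 25819386 and 26214598 counts in DOX samples, and between 23121255 and 25412493 in DMSO samples. At the depth of the smallest library, 23576 to 24166 genes had a count in DOX samples, against 22951 to 23310 in DMSO samples, and the corresponding numbers of LINC genes were 205 to 223 in DOX samples and 194 to 204 in DMSO samples. Detection thus moved with the group, and its part in the results below was not tested. The T lineage markers were all detected, CD3E at 888 to 1017 CPM in DOX samples and 923 to 1030 CPM in DMSO samples.

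The name LINC fits these genes only in part. Of 106 gene identifiers, 102 were in GENCODE 29, a later annotation, and 83 of these had a long noncoding class, 56 of them lincRNA and 11 antisense. A further 13 were classed as protein-coding and 6 as pseudogenes, and 24 were listed under another symbol. With the genes classed as protein-coding kept, the genes are called LINC genes below. Gene bodies overlapped that of a protein-coding gene at 25 LINC genes, on the same strand at 12 and on the opposite strand at 13. At 9 LINC genes at least 25% of the 100-base windows of their exons were also found in another gene, so reads may have been shared. Those 9 include LINC01001, at 63.7%, and LINC00969, at 45.5%, each taken over all other genes together. The gene matched most often was LINC01002 for LINC01001 and SDHAP1 for LINC00969. Sequencing was strand-specific, but whether the counting used the strand is not stated, which leaves values of overlapping and antisense genes uncertain.

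The LINC genes took a small share of the reads, and a single gene took much of it. Together they held 0.118%, 0.120% and 0.121% of counts in DOX samples, against 0.112%, 0.108% and 0.112% in DMSO samples. Without NORAD the share was 0.0795%, 0.0801% and 0.0775% in DOX samples, against 0.0736%, 0.0740% and 0.0745% in DMSO samples. In these unscaled shares the groups did not overlap. With TMM scaling the sum without NORAD was 790, 788 and 759 CPM in DOX samples, against 741, 763 and 752 CPM in DMSO samples, and there DOX replicate 3 lay below DMSO replicate 2. The median of mean log2 CPM was 1.44 over the LINC genes, with a range of -1.01 to 8.60, and 4.20 over all tested genes. Their longest transcripts had a median of 2580 bases and 3 exons, against 3229 bases and 7 exons in the other tested genes, and median GC content was 48.4% against 48.5%.

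The highest level was that of NORAD (LINC00657), a cytoplasmic RNA that binds Pumilio proteins and is needed for faithful chromosome segregation. NORAD had 384, 396 and 429 CPM in DOX samples, against 388, 351 and 381 CPM in DMSO samples. The groups overlapped, and its log2 fold change of 0.11 (SE 0.0533) did not pass (adjusted p = 0.117). It passed under upper-quartile scaling, under scaling by library size and with a correction for GC content and length, where the log2 fold change was 0.19 (adjusted p = 0.00268). LINC00977, whose identifier is not in GENCODE 29, came next with 110, 110 and 101 CPM in DOX samples and 116, 121 and 107 CPM in DMSO samples. LINC00667 had 40.3, 40.7 and 37.8 CPM in DOX samples, against 41.1, 42.7 and 44.7 CPM in DMSO samples. Neither LINC00977 (adjusted p = 0.178) nor LINC00667 (adjusted p = 0.158) was called, though the samples of LINC00667 did not overlap. LINC00847 and LINC00963 also overlapped between groups, at 34.8 to 36.7 and 26.4 to 31.0 CPM in DOX samples and 34.2 to 37.1 and 26.7 to 31.7 CPM in DMSO samples. Per kilobase of exon, NORAD averaged 75.5 ± 4.37 CPM in DOX samples and 69.9 ± 3.63 CPM in DMSO samples (SD, n = 3 each). Of the 102 LINC genes with a length, which leaves out LINC00977, the next by that scale were LINC00051 at 24.2 ± 0.854 CPM per kilobase in DOX samples and 20.4 ± 2.05 in DMSO samples, and SMIM26 (LINC00493) at 16.8 ± 1.37 in DOX samples and 19.7 ± 1.75 in DMSO samples.

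Between the groups, 17 LINC genes were called higher in DOX and 6 lower at an adjusted p under 0.05, and 83 were not called. The 17 were 16% of the 106, against 13.8% called higher among all tested genes, and the 6 were 5.66%, against 15.5% called lower. In either direction the share was 21.7% for LINC genes and 29.3% for all tested genes. The median log2 fold change was 0.14 for LINC genes and -0.00072 for all tested genes, and 78 of the 106 fold changes were above 0. The DOX and DMSO samples did not overlap at 25 LINC genes that were higher and 10 that were lower, against 20.7% and 21% of all tested genes. Together these were 33% of LINC genes, against 41.7% of all tested genes. Of the 23 called, 21 had groups that did not overlap, and LINC00176 and LINC00694 were the exceptions. Only LINC00861 and LINC00479 reached 2-fold, and 12 LINC genes, 8 of them called, reached 1.5-fold.

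The split between rises and falls depended on the scaling and on single libraries. With upper-quartile scaling it was 21 higher and 2 lower (18.5% and 10.2% of all tested genes), and with library size alone 20 higher and 2 lower (17.8% and 10.4%). Without the filter on low counts it was 16 higher and 6 lower (6.33% and 8.34%). Without DOX replicate 1 the number called higher was 10 (10.2% of all tested genes in that fit). The number called lower was 2 without DMSO replicate 2 (14.7%), 2 without DOX replicate 3 (11.2%) and 3 without DOX replicate 2 (13%).

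**Figure D1:**
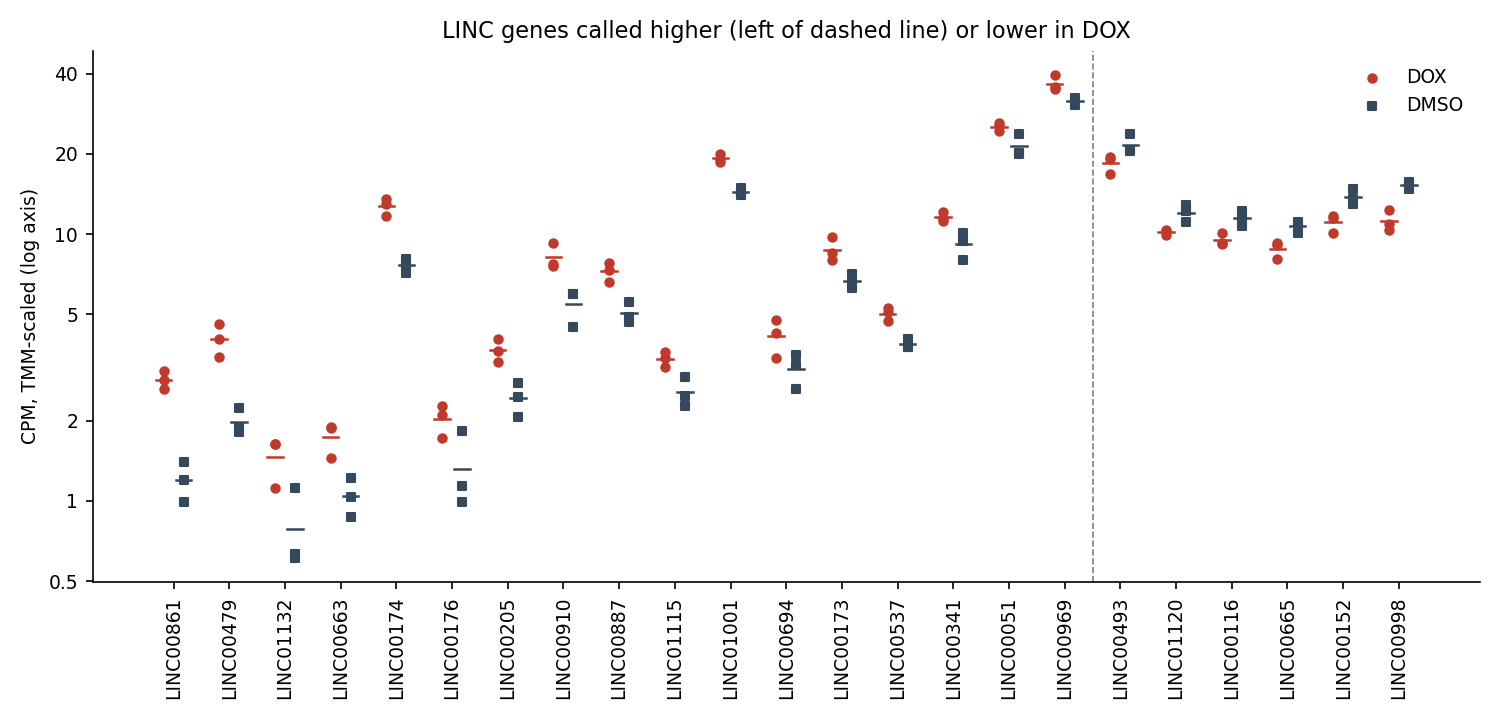
CPM with TMM scaling (log axis) of the 23 called LINC genes, with DOX samples as red circles and DMSO samples as dark squares, each point 1 sample and each short line the mean of 3. The 17 genes left of the dashed line were called higher in DOX and the 6 right of it lower, and among these the groups overlap at LINC00176 and LINC00694.

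The largest rise was that of LINC00861 (ENSG00000245164), which is transcribed in T cells and other lymphocytes. It had 2.85, 2.63 and 3.06 CPM in DOX samples, against 0.992, 1.198 and 1.40 CPM in DMSO samples. Every DOX value was above every DMSO value, and the log2 fold change was 1.26 (SE 0.193, edgeR adjusted p = 3.43e-05). Those levels rest on 226 counts summed over the DOX samples and 86 over the DMSO samples. LINC00479 (ENSG00000236384), a lincRNA of chromosome 21, followed with 4.59, 3.47 and 4.04 CPM in DOX samples, against 2.22, 1.82 and 1.88 CPM in DMSO samples. Its groups lay apart, and its log2 fold change was 1.03 (SE 0.162, adjusted p = 4.59e-05). LINC00174, a processed transcript that overlaps TPST1 on the opposite strand, had the smallest p of the LINC genes. Its level was 13.0, 13.5 and 11.7 CPM in DOX samples, against 7.69, 7.15 and 8.08 CPM in DMSO samples. That gap gave a log2 fold change of 0.74 (SE 0.0933, adjusted p = 3.18e-06).

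A further 6 LINC genes named by size rose by between 0.53 and 0.89 on the log2 scale. LINC01132 had 1.63, 1.64 and 1.12 CPM in DOX samples, against 0.635, 1.12 and 0.611 CPM in DMSO samples (log2 fold change 0.89, adjusted p = 0.0141). Its lowest DOX sample and highest DMSO sample lay at the same rounded level. LINC00663 had 1.90, 1.45 and 1.87 CPM in DOX samples, against 1.03, 0.868 and 1.22 CPM in DMSO samples, and LINC00205 had 3.64, 4.04 and 3.33 CPM in DOX samples, against 2.06, 2.77 and 2.45 CPM in DMSO samples. LINC00910 reached 9.26, 7.74 and 7.62 CPM in DOX samples, against 4.48, 5.95 and 5.98 CPM in DMSO samples. LINC00887 reached 7.82, 7.36 and 6.62 CPM in DOX samples, against 4.88, 4.67 and 5.59 CPM in DMSO samples. At these 4 genes all DOX values lay above all DMSO values, with log2 fold changes of 0.74, 0.60, 0.59 and 0.53 and adjusted p-values of 0.0141, 0.00531, 0.000659 and 0.00117 in the same order. LINC00176, described as an RNA that MYC induces in liver cancer cells and classed in GENCODE 29 as the protein-coding gene C20orf204, had 2.28, 2.10 and 1.72 CPM in DOX samples, against 1.82, 0.992 and 1.14 CPM in DMSO samples. Its groups overlapped, because 1 DMSO sample stood above the lowest DOX sample (log2 fold change 0.61, adjusted p = 0.0394).

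Smaller rises were seen at 3 further LINC genes that are named by size. LINC01115 had 3.19, 3.62 and 3.44 CPM in DOX samples, against 2.26, 2.48 and 2.93 CPM in DMSO samples (log2 fold change 0.42, edgeR adjusted p = 0.0395). LINC01001, most of whose 100-base windows were found in other genes, LINC01002 most often, had 20.002, 18.6 and 19.2 CPM in DOX samples, against 14.8, 14.3 and 14.0 CPM in DMSO samples. At LINC01001 the groups were far apart for their spread (log2 fold change 0.42, SE 0.0739, adjusted p = 0.000145), while its reads may belong in part to those other genes. LINC00694, listed in GENCODE 29 as the pseudogene C3orf86, had 4.78, 4.27 and 3.44 CPM in DOX samples, against 3.53, 3.22 and 2.62 CPM in DMSO samples. Its groups overlapped (log2 fold change 0.41, adjusted p = 0.046). The remaining 5 of the 17, named after their values were seen, were LINC00173, LINC00537, LINC00341, LINC00051 and LINC00969, with log2 fold changes of 0.39, 0.38, 0.34, 0.25 and 0.21. LINC00537 is the pseudogene DUX4L50 in GENCODE 29, and 0% of its 100-base windows were found in another gene. LINC00969, among the 6 of highest level, had 39.5, 35.5 and 35.1 CPM in DOX samples, against 32.3, 30.6 and 32.05 CPM in DMSO samples, and all 3 DOX values were the higher ones.

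Among the 17, 8 were called higher under every alternative that tested them, every fit without 1 sample included. They were LINC00173, LINC00174, LINC00205, LINC00479, LINC00861, LINC00887, LINC00910 and LINC01001. DESeq2 did not call 6 of the 17, which were LINC00176, LINC00537, LINC00663, LINC00694, LINC01115 and LINC01132. LINC01115 was also not called without the filter on low counts. Without DOX replicate 1, 7 of the 17 were not called, LINC00176 and LINC00694 among them. In the authors' deposited table, 11 LINC genes of the 90 with an adjusted p were called higher (9.79% of all genes with one) and 2 lower (15.6%), and all of these were among the 17 and the 6.

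The genes called lower were LINC00998, LINC00152, LINC00665, LINC00116, LINC01120 and LINC00493, all with a change smaller than 1.5-fold. LINC00998 (ENSG00000214194), now SMIM30 and known to encode a small membrane protein, had 10.9, 12.4 and 10.4 CPM in DOX samples, against 15.7, 14.8 and 15.4 CPM in DMSO samples. The samples lay apart, and SMIM30 fell by 0.45 on the log2 scale (SE 0.0844, adjusted p = 0.000274). LINC00152 (ENSG00000222041), now CYTOR and raised in many tumours, had 11.7, 11.5 and 10.1 CPM in DOX samples, against 13.0, 14.8 and 13.5 CPM in DMSO samples. CYTOR fell by 0.31 on the log2 scale (adjusted p = 0.0081), with no overlap. LINC00665, also studied as an RNA raised in tumours, had 9.07, 8.08 and 9.23 CPM in DOX samples, against 10.1, 11.1 and 11.0 CPM in DMSO samples, and LINC01120 had 10.3, 10.3 and 9.90 CPM in DOX samples, against 12.9, 12.2 and 11.1 CPM in DMSO samples. Their log2 fold changes were -0.29 (adjusted p = 0.0212) and -0.25 (adjusted p = 0.0353). No LINC gene was called lower under every alternative: with the correction for GC content and length CYTOR alone of the 6 was called (-0.29, adjusted p = 0.0255), while SMIM30 was at -0.16 (adjusted p = 0.134), and without DOX replicate 3 CYTOR was not called.

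LINC symbols that proved to encode small proteins were counted as a group of their own. Of the 6 LINC genes on this list, 3 fell, 0 rose and 3 did not pass, with a median log2 fold change of -0.08, against 0.14 over all LINC genes. At an unadjusted edgeR p under 0.05, 1 of the 6 was higher, and DESeq2 called 0 higher. Among all tested genes 13.8% were called higher and 15.5% lower. The 13 LINC genes that GENCODE 29 classes as protein-coding, a wider group, had 1 called higher, 3 lower and a median of 0.24, on the other side of the LINC median. The 3 of the list that fell were SMIM30, MTLN and SMIM26. LINC00116, now MTLN, encodes mitoregulin, a peptide of the inner mitochondrial membrane, and had 10.1, 9.15 and 9.23 CPM in DOX samples, against 10.7, 12.2 and 11.6 CPM in DMSO samples. SMIM26 (LINC00493), which encodes a small protein of mitochondria and overlaps AL121900.2 on the same strand, had 19.2, 19.5 and 16.7 CPM in DOX samples, against 20.4, 23.8 and 20.6 CPM in DMSO samples. Neither gene had an overlap between groups, and the log2 fold changes were -0.28 for MTLN (adjusted p = 0.0215) and -0.23 for SMIM26 (adjusted p = 0.0299). Both calls were absent from DESeq2, from the other scalings and from the fit with the GC and length correction, where the values were -0.21 for MTLN (adjusted p = 0.0662) and -0.15 for SMIM26 (adjusted p = 0.104). The 3 that did not pass were LINC00086 and LINC00087, the near-copy pair SMIM10L2A and SMIM10L2B, and LINC00094, which is BRD3OS. LINC00086 had 5.92, 6.60 and 7.18 CPM in DOX samples, against 5.12, 5.41 and 6.07 CPM in DMSO samples, with an overlap and an adjusted p of 0.106. LINC00087 stood at 1.12 to 1.48 CPM in DOX samples and 0.744 to 1.27 CPM in DMSO samples (adjusted p = 0.212), and BRD3OS at 27.2 to 28.7 CPM in DOX samples and 25.2 to 28.7 CPM in DMSO samples (adjusted p = 0.528). Among all tested genes classed as protein-coding and not LINC genes, 14.9% were called higher and 18.6% lower.

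A list of 18 long noncoding RNAs with a described role had 9 LINC genes tested, of which LINC00176 rose, CYTOR fell and 7 did not pass (median log2 fold change -0.04), where 13.8% of all tested genes were called higher and 15.5% lower. With the GC and length correction LINC00176 was not called (0.44, adjusted p = 0.177). Beyond NORAD and LINC00963, the 7 included LINC00467 at 3.11 to 4.003 CPM in DOX samples and 2.97 to 3.17 CPM in DMSO samples, and LINC00511, described in tumours, at 2.62 to 3.39 CPM in DOX samples and 2.62 to 3.32 CPM in DMSO samples. LINC00662 had 10.7, 10.4 and 10.0 CPM in DOX samples, against 11.7, 11.5 and 12.4 CPM in DMSO samples; the groups did not overlap, but the adjusted p was 0.0859. LINC00338, the snoRNA host gene SNHG20, stood at 2.17 to 2.84 CPM in DOX samples and 1.78 to 2.27 CPM in DMSO samples (adjusted p = 0.19). LINC00339 stood at 6.33 to 6.77 CPM in DOX samples and 5.83 to 7.68 CPM in DMSO samples (adjusted p = 0.728).

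RNAs described in lymphocytes were represented by 5 LINC genes, of which LINC00861 alone was called. Among all tested genes 13.8% were called higher and 15.5% lower. LINC00892, which lies near CD40LG, had 20.3, 21.8 and 21.2 CPM in DOX samples, against 19.2, 19.9 and 20.5 CPM in DMSO samples, and the groups overlapped (log2 fold change 0.09, adjusted p = 0.363). With the GC and length correction LINC00892 was called higher (0.23, edgeR adjusted p = 0.0134), and LINC00861 was still called. LINC00426 ranged from 1.98 to 3.05 CPM in DOX samples and from 1.59 to 2.23 CPM in DMSO samples (adjusted p = 0.185). LINC00422, listed in GENCODE 29 as LINC00539, had 2.96 to 3.62 CPM in DOX samples and 3.10 to 3.61 CPM in DMSO samples, and LINC00877 had 1.56 to 2.09 CPM in DOX samples and 1.27 to 2.06 CPM in DMSO samples. The table also lists LINC01550 under its older symbol C14orf64, which keeps it out of the 106. Its level was 54.2, 53.1 and 51.8 CPM in DOX samples, against 55.4, 56.4 and 57.5 CPM in DMSO samples, with an adjusted p of 0.228. Of 13 T lineage markers, CD5, CD7 and BCL11B rose, CD3G fell and 9 did not pass, where 13.8% of all tested genes were called higher and 15.5% lower. With the GC and length correction CD5 and CD7 were still called, but CD3G (-0.07, adjusted p = 0.235) and BCL11B (0.08, adjusted p = 0.179) were not. CD2 was called higher with the correction alone (0.19, edgeR adjusted p = 0.0301). Some markers of other lineages moved with the group. Of the B cell markers, CD79A rose, with 5.05, 7.47 and 5.53 CPM in DOX samples, against 3.13, 2.56 and 3.58 CPM in DMSO samples (log2 fold change 0.96, edgeR adjusted p = 5.38e-05), PAX5 did not pass (log2 fold change -0.46, adjusted p = 0.125; with the GC and length correction -0.62, adjusted p = 0.0499) and MS4A1 was at 0 in all samples. Of 4 myeloid markers MPO alone was tested and rose, and the sum was 1.64 to 1.97 CPM in DOX samples and 0.909 to 1.19 CPM in DMSO samples. Of 3 fibroblast markers COL1A1 alone was tested and rose, COL1A2 was at 0, and the sum was 47.3 to 53.0 CPM in DOX samples and 39.9 to 40.3 CPM in DMSO samples. With the correction COL1A1 was not called (0.08, adjusted p = 0.239). The erythroid marker HBB was at 0 and the 3 epithelial markers summed to at most 0.0762 CPM in DOX samples and 0.0793 CPM in DMSO samples. The part of these markers in the change of LINC00861 was not tested.

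Low-level genes had more rises than falls in the whole table, so the LINC genes were set beside all tested genes of the same level. At a mean log2 CPM under 0, 0 of 20 LINC genes were called, against 8.77% of all tested genes higher and 0.849% lower. At an unadjusted edgeR p under 0.05, 4 of the 20 were higher and 0 lower, and DESeq2 called 0 of the 4 to which it gave an adjusted p. From 0 to 2, 8 of 48 LINC genes were higher and 0 lower, against 14% and 1.79% of all tested genes, with 1 lower at an unadjusted edgeR p under 0.05 and 0 by DESeq2. From 2 to 4, 6 of 22 were higher and 5 lower, against 17.4% and 9.5%. At 4 or more, 3 of 16 were higher and 1 was lower, against 13.8% and 25.7%. The class of 4 or more, in which falls were most frequent over all tested genes, holds 8128 of the 15492 tested genes but 16 of the 106 LINC genes. Median log2 fold changes by class, from low to high level, were 0.16, 0.23, 0.05 and 0.06 for LINC genes and 0.19, 0.14, 0.02 and -0.05 for all tested genes. Level and log2 fold change had a Spearman rho of -0.27 across LINC genes (n = 106) and -0.27 across the other tested genes (n = 15386); the points share the same 6 libraries.

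**Figure D2:**
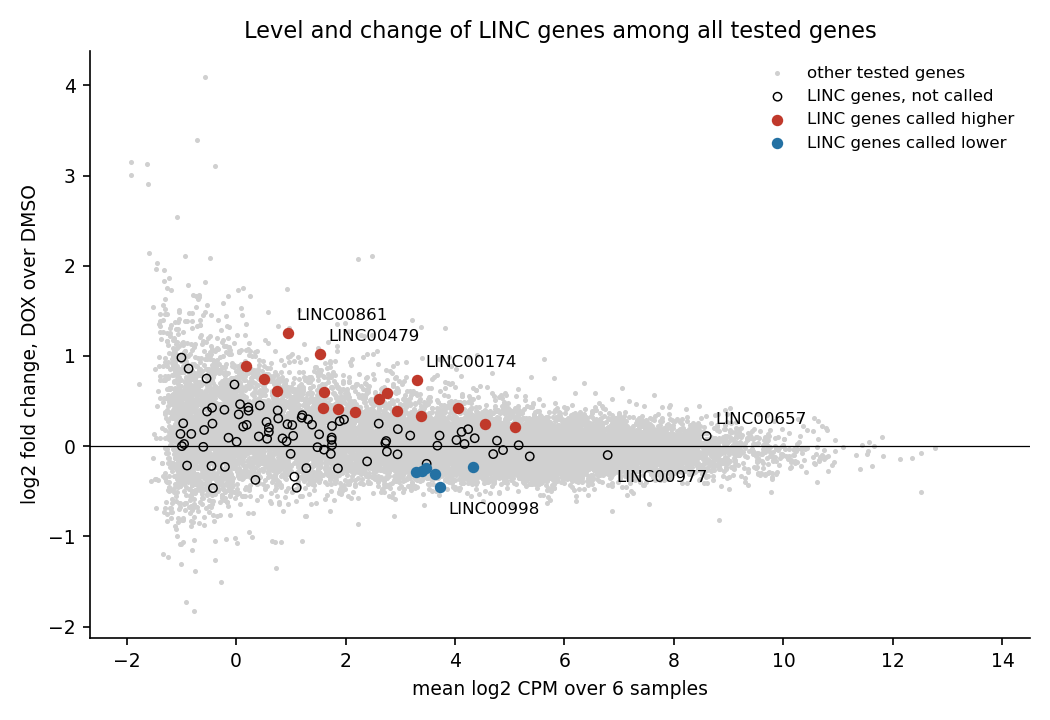
Log2 fold change of DOX over DMSO against mean log2 CPM over the 6 samples for 15492 tested genes. Red points are LINC genes called higher, blue points LINC genes called lower, open circles LINC genes not called and grey points other genes, and the 6 LINC genes called lower lie between mean log2 CPM of 2 and 5 while NORAD (LINC00657) stands alone at 8.60.

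**Figure D3:**
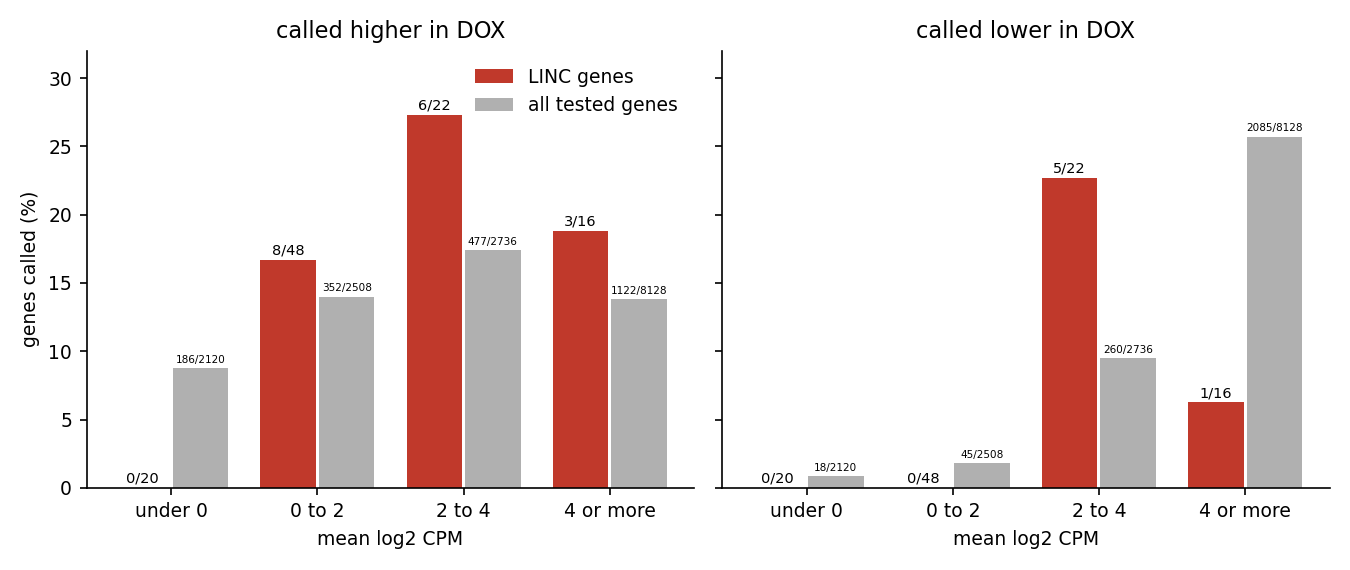
Percent of genes called higher (left) and lower (right) in DOX by class of mean log2 CPM, with LINC genes in red left of all tested genes in grey and the number called over the number tested above each bar. In the class of 4 or more, 3 of 16 LINC genes were called higher and 1 lower, where all tested genes had 13.8% and 25.7%.

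By class in GENCODE 29, 13 of the 83 LINC genes with a long noncoding class were called higher and 3 lower. Of 1656 other tested genes with such a class, 9.36% were called higher and 2.23% lower. Below a mean log2 CPM of 4, 10 of 70 LINC genes with a long noncoding class were called higher (14.3%) and 3 lower (4.29%). At those levels the other genes with such a class had 8.67% higher and 1.16% lower, and protein-coding genes that are not LINC genes had 17.4% and 5.37%. GC content and log2 fold change had a Spearman rho of 0.23 across LINC genes (n = 102) and 0.41 across the other tested genes (n = 14934), given as descriptions over genes that share the same 6 libraries. With an offset for the trend of GC content and length in each library, 22 LINC genes were called higher and 1 lower of 102, against 10.8% and 11.4% of 15036 genes. Of the 17 called higher without the offset 14 remained, and LINC00176, LINC00537 and LINC00341 were not called with it, the last because its identifier has no entry. The 8 gained were LINC00263, LINC00342, LINC00657, LINC00843, LINC00892, LINC00933, LINC01094 and LINC01125. The median log2 fold change with the offset was 0.21 for LINC genes and 0.01 for all genes in that fit.

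**Figure D4:**
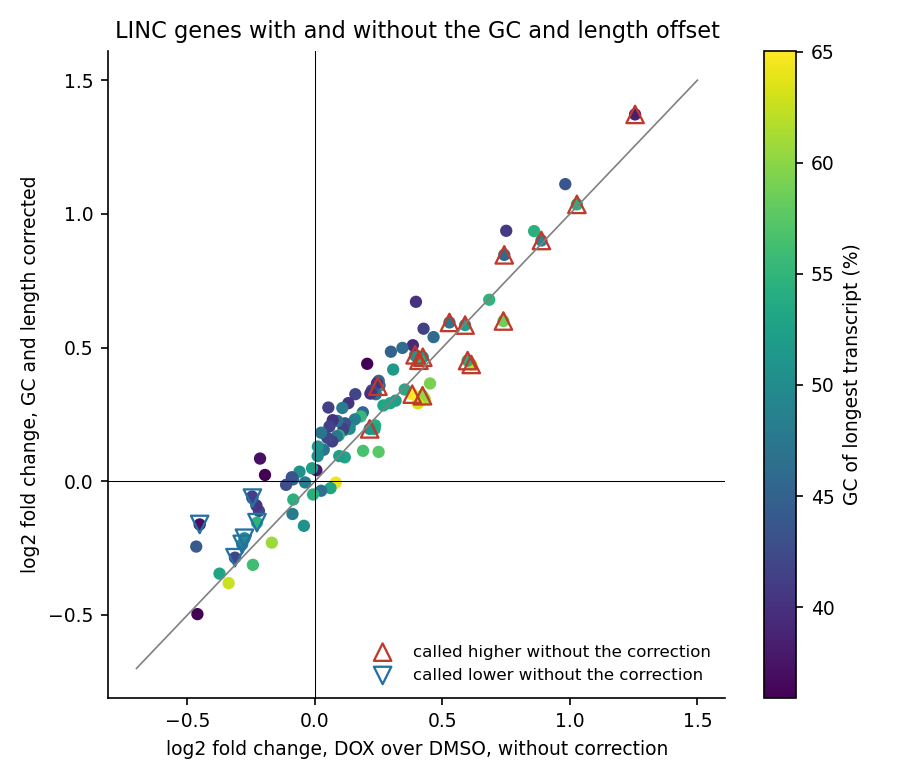
Log2 fold change of DOX over DMSO with the offset for GC content and length (vertical) against that without it (horizontal) for 102 LINC genes, coloured by GC content of the longest transcript, with the grey line marking equality. Triangles mark genes called higher (up) or lower (down) without the offset, and genes of low GC content lie above the line, among them SMIM30 at -0.16 with and -0.45 without the offset.

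On chromosome 21, LINC00479 and LINC00112 face away from each other, with RefSeq starts 661 bases apart on GRCh38.p14, and the nearest protein-coding gene of both is RIPK4, a kinase known from skin development. LINC00112 had 0.569, 0.915 and 0.486 CPM in DOX samples, against 0.476, 0.372 and 0.218 CPM in DMSO samples. All 3 DOX values were the higher ones, but they rest on 52 counts in DOX samples and 26 in DMSO samples, and LINC00112 did not pass (log2 fold change 0.86, SE 0.373, adjusted p = 0.0847). RIPK4 had 20.1, 18.7 and 22.3 CPM in DOX samples, against 15.7, 17.1 and 14.1 CPM in DMSO samples. Its groups lay apart, with a log2 fold change of 0.38 (SE 0.0823, adjusted p = 0.00119). LINC00112 and LINC00479 were 1 of 6 pairs of LINC genes with starts within 50 kilobases of each other. In 5 of the 6 pairs both members had a fold change of the same sign. As 78 of the 106 LINC genes had a fold change above 0, many pairs that are not neighbours would also share a sign. LINC00479 was the only called gene in the pairs, and LINC01159, in a pair counted as same sign, was at -0.0075. Whether neighbours shared a sign more often than other LINC genes was not tested.

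**Figure D5:**
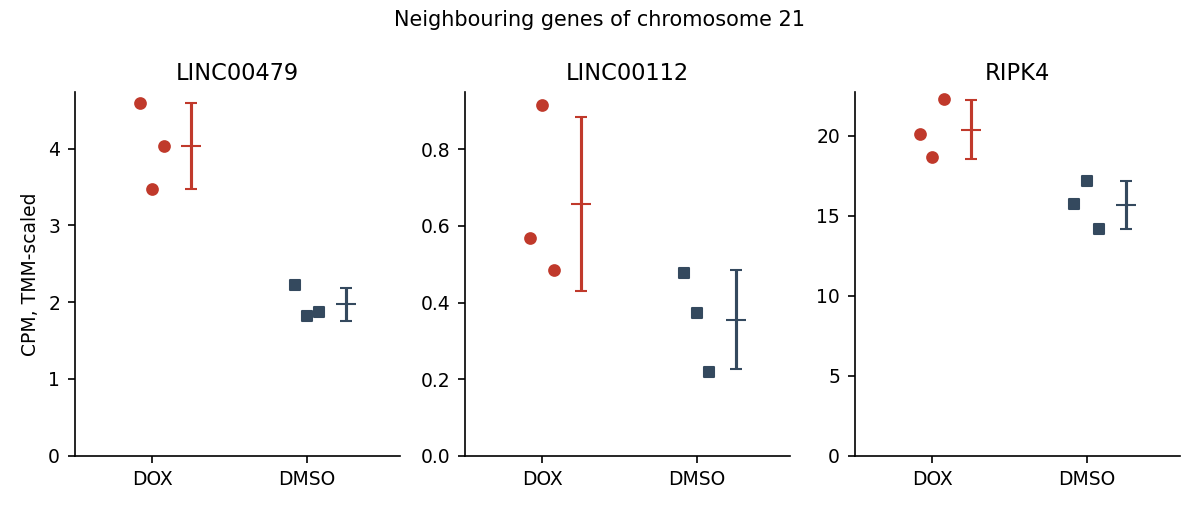
CPM with TMM scaling of LINC00479, LINC00112 and RIPK4, neighbours on chromosome 21, with DOX samples (red circles) left of DMSO samples (dark squares) and bars of mean ± SD over 3 samples. The DOX values lie above the DMSO values in all 3 genes, narrowly for LINC00112, where the lowest DOX sample is at 0.486 CPM and the highest DMSO sample at 0.476 CPM.

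Over all LINC genes, the nearest protein-coding gene was set beside the LINC gene. Of 74 LINC genes whose neighbour was tested, 41 had a fold change of the same sign as the neighbour, with a Spearman rho of 0.14 given as a description. Without neighbours that overlap the LINC gene, the numbers were 30 of 56 and a rho of 0.08. For the called LINC genes alone they were 13 of 16 and a rho of -0.12. Both genes were called in the same direction in 4 pairs and in opposite directions in 0, where 29 of the 74 neighbours were called, and 4 of the 16 tested neighbours of called LINC genes. These were LINC00479 with RIPK4, LINC00694 with ZNF445, a zinc finger gene that acts in imprinting (log2 fold change 0.18, adjusted p = 0.0142), LINC00969 with the mucin gene MUC20 (0.59, adjusted p = 0.00272) and LINC00051 with TSNARE1 (0.21, adjusted p = 0.0462). LINC00694 and LINC00969 overlap their neighbour on the same strand, so the pairs may share reads. With the GC and length correction neither ZNF445 (0.03, adjusted p = 0.618) nor TSNARE1 (0.11, adjusted p = 0.3) was called. MUC20 had 4.14, 4.42 and 3.85 CPM in DOX samples, against 2.86, 2.85 and 2.49 CPM in DMSO samples. TRIB1, the neighbour of LINC00861 and a pseudokinase gene, had a log2 fold change of -0.34 (adjusted p = 0.194), and IRF2BP2, the neighbour of LINC01132, one of 0.11 (adjusted p = 0.135).

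Long noncoding RNAs with other names gave a further comparison. Of 33 listed, 24 were tested, 6 rose, 4 fell and 14 did not pass (median log2 fold change -0.03), where 9.36% of tested genes with a long noncoding class were called higher and 2.23% lower, and 13.8% and 15.5% of all tested genes. With the GC and length correction 5 of the 6 and 2 of the 4 were still called. GAS5 (0.31, edgeR adjusted p = 2.72e-05) and PSMA3-AS1 (0.17, edgeR adjusted p = 0.0341) were called higher with it alone. That made 7 higher and 2 lower, where 10.8% and 11.4% of all genes in that fit were called, and the median became 0.09. The nuclear RNAs MALAT1 and NEAT1 rose: MALAT1 had 242, 269 and 264 CPM in DOX samples, against 206, 174 and 191 CPM in DMSO samples (log2 fold change 0.44, adjusted p = 4.2e-06). NEAT1, the scaffold of paraspeckles, had 94.7, 90.5 and 102 CPM in DOX samples, against 71.6, 69.1 and 74.3 CPM in DMSO samples (log2 fold change 0.42, adjusted p = 5.21e-06). DANCR, a host gene of snoRNAs, had 109, 104 and 100 CPM in DOX samples, against 128, 136 and 128 CPM in DMSO samples, and fell by 0.32 on the log2 scale (adjusted p = 4.73e-05). None of these 3 overlapped between groups.

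Genes of the nuclear RNA exosome and its cofactors, which degrade many noncoding transcripts, were counted as well. The list also holds XRN2, a nuclease that is not part of the exosome and was not called. Of 20 tested, 0 rose, 9 fell and 11 did not pass. Among all tested genes 13.8% were called higher and 15.5% lower. Among those at a mean log2 CPM of 4 or more the shares were 13.8% and 25.7%. The median log2 fold change of the 20 was -0.15, against -0.00072 over all tested genes and -0.05 over those at 4 or more. With the GC and length correction 2 of the 9, EXOSC9 and MPHOSPH6, were still called, and ZC3H18 was called lower with it alone. These were 3 of 20, where 11.4% of all genes in that fit were called lower and 10.8% higher. At an unadjusted edgeR p under 0.05, 0 were higher, and DESeq2 called 0 higher. MPHOSPH6, an exosome cofactor, had 16.1, 19.4 and 18.3 CPM in DOX samples, against 24.2, 25.6 and 27.9 CPM in DMSO samples (log2 fold change -0.53, adjusted p = 1.76e-05). EXOSC9, a subunit of the core ring, had 63.0, 64.1 and 64.1 CPM in DOX samples, against 83.4, 79.1 and 79.3 CPM in DMSO samples (log2 fold change -0.34, adjusted p = 3.43e-05). With the correction the log2 fold changes were -0.25 for MPHOSPH6 (adjusted p = 0.0114) and -0.17 for EXOSC9 (adjusted p = 0.00759). SKIV2L2, the MTR4 helicase, fell by 0.24 on the log2 scale (adjusted p = 0.00146), with 52.6, 57.1 and 55.2 CPM in DOX samples, against 65.5, 65.1 and 64.6 CPM in DMSO samples, and with the correction it was not called (-0.11, adjusted p = 0.081). Each of the 3 had all DOX values below all DMSO values. Whether these levels bear on those of the LINC genes was not tested.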

How the data were processed

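RNA of 3 DOX and 3 DMSO samples of RPMI-8402 was read as strand-specific pairs of 100 bases, per the labels. The authors deposited raw read counts for each gene. STAR 2.5.2a, featureCounts, DESeq2 1.12.4 and hg19 are named per the submitters' processing notes, without roles; annotation and strand setting are not given in the sources used here. Per the file headers, the authors' DESeq2 table holds a mean signal normalized by size factors. It also holds a log2 fold change with a standard error, a p-value and a score (the Wald statistic) for each gene, per the file headers.

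Library totals were 23121255 to 26214598 counts. The counts were filtered with filterByExpr at its defaults, scaled with TMM and compared with edgeR 4.0.16 (R 4.3.3) by the quasi-likelihood test, with only the treatment in the model. A gene was called when its p, adjusted by Benjamini and Hochberg's method over 15492 genes, was under 0.05. Fold changes are DOX over DMSO, and the SE is the size of the log2 fold change over the root of F. GC content, length, class and neighbours come from GENCODE 29, matched by gene identifier, and promoters from RefSeq on GRCh38.p14, matched by symbol and chromosome. GENCODE 29 is of GRCh38 and the files of hg19, so no coordinates of genes are given. For the correction for GC content and length, natural splines with 5 degrees of freedom were fitted in each library (prior count 2, mean log2 CPM above 2) and entered edgeR as an offset, which also takes out any true change along that trend. The fits were tested on simulated data.

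The LINC genes and all gene lists were chosen with earlier results of these data known. Named genes are MYC, the 12 largest rises and 12 largest falls of called LINC genes (6 falls were called), the 6 LINC genes of highest level, all LINC genes on the 3 lists, the 3 genes of smallest p of other lists and neighbours of called LINC genes; others were chosen after their values were seen. Alternatives were another scaling, no filter, DESeq2 1.42.0, a replicate block, the GC and length offset, a summed count of 120 and leaving out each sample. Some marker genes of other cell types are not reported here.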

Additional observations from a re-analysis of the deposited data

How the results depend on the processing

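In edgeR's quasi-likelihood test 17 LINC genes were called higher and 6 lower (13.8% and 15.5% of all tested genes). The alternatives follow, with the shares of all genes in each fit. DESeq2 gave 11 and 2 (9.79% and 15.6%), upper-quartile scaling 21 and 2 (18.5% and 10.2%) and library size alone 20 and 2 (17.8% and 10.4%). The offset for GC content and length gave 22 and 1 (10.8% and 11.4%), and that offset with the replicate block 22 and 2 (10.2% and 10.9%). No filter on low counts gave 16 and 6 (6.33% and 8.34%). A summed count of at least 120 (90 LINC genes) gave 17 and 6 in the main fit. Without 1 sample each in turn, 10 to 15 were called higher and 2 to 5 lower. In those fits 9.76% to 12.7% of all genes were called higher and 11.2% to 14.7% lower. The median log2 fold change of 0.14 became 0.184 under upper-quartile scaling, 0.179 by library size, and 0.214 with the offset, with and without the block. Over all tested genes the median of -0.00072 became 0.0474 under upper-quartile scaling and 0.0430 by library size, so both scalings moved all genes alike. With the offset the median of all genes in that fit was 0.0148. MYC was called under upper-quartile scaling (0.140, adjusted p = 0.0357) and by library size (0.136, adjusted p = 0.0281). The cause of these moves was not tested. Same-numbered samples deviated from their group means with correlations of -0.06, -0.23 and 0.09 over 10864 genes. Between other numbers the correlations ran from -0.28 (DOX 1 with DMSO 3) to 0.32 (DOX 1 with DMSO 2). Deviations within a group of 3 sum to 0, so these values cannot decide whether samples were paired. With the replicate number as a block, 17 LINC genes were called higher and 6 lower (12.9% and 14.2% of all tested genes), and 4206 genes in all, against 4545 without it.

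Of 36 named LINC genes, 14 kept direction and call in every alternative, and of 466 values 371 did so, 64 lost a call, 7 gained a call and 24 changed sign. The sign changes were all at log2 fold changes that were not called. LINC00847 was at -0.0051 without the filter and ranged from -0.0205 to 0.0401 without 1 sample. LINC00963 was at 0.00086 by library size, 0.0046 under upper-quartile scaling and -0.120 to 0.0198 without 1 sample. LINC00511 was at 0.0052 by library size, 0.0093 under upper-quartile scaling and -0.155 to 0.0389 without 1 sample. With the offset alone and with the block added, LINC00094 was at -0.0257 and -0.0247, LINC00662 at 0.0235 and 0.0240 and LINC00339 at 0.0359 and 0.0357, and LINC00339 ranged from -0.166 to 0.0256 without 1 sample. LINC00422 was at -0.0044 without the filter and -0.0570 to 0.0871 without 1 sample, and LINC00877 at -0.0787 to 0.257 without 1 sample. At 78 counts in all, the SE of LINC00112 was 0.373 on the log2 scale, and that of NORAD, at 58997 counts, was 0.0533.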
